A study of Rattus norvegicus with 8 samples.

Results

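Caveolae are flask-shaped pits of the plasma membrane, and the 10 genes described here encode the proteins that build, shape, anchor or close them. They were chosen by name, through the accession of each array probe, and matched 12 of the 30367 probes on the array, with all 10 genes kept among the 19137 genes tested. The RNA came from lung endothelial cells of Sprague-Dawley rats aged 8 to 10 weeks. In the monocrotaline group, 4 rats had received monocrotaline under the skin at 60 mg/kg, and their lungs were taken 5 days later. In the saline group, 4 rats had received saline in the same way and were sampled at the same time. Monocrotaline is a plant alkaloid whose liver-made pyrrole injures lung vessels, and the series title places the comparison early in a rat model of pulmonary arterial hypertension. Cells were drawn from digested whole lung on beads coated with antibody against CD31, which platelets and some leukocytes also carry, and were lysed without culture.

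Caveolins are hairpin proteins that sit in the inner leaflet, and cavins form a coat over them from the cytosol. In capillary endothelium caveolae are so dense that they make up much of the membrane, and the neck of the pit can be spanned by a thin diaphragm made of the Plvap protein. Loss of caveolin 1 protein from lung endothelium has been described in the monocrotaline model. The arrays measured RNA only.

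Cav1 and Cav2 are neighbours, with 0 annotated genes between them. The 250 bases before the first RefSeq start of each are shown for that reason, and those of Plvap because it is the gene of the diaphragm. Each is written 5′ to 3′ on the strand of its gene, from the GRCr8 build. Capitals mark matches, on either strand, to 4 short motifs: the GC box GGGCGG, the TATA box TATAAA, the ETS core CGGAAG and the AP-1 site TGANTCA.
Cav1 (GRCr8, chr4:46606288-46606537, + strand): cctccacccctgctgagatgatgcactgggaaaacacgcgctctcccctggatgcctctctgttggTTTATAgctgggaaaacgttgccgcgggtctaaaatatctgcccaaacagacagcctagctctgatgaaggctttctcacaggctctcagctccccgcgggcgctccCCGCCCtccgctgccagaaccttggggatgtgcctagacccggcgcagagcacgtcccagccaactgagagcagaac
Cav2 (GRCr8, chr4:46582431-46582680, + strand): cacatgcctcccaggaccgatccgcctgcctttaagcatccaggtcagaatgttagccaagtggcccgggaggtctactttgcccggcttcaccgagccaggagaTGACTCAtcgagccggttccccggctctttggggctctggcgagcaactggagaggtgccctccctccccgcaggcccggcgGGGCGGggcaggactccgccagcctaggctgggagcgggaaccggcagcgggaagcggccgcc
Plvap (GRCr8, chr16:18231280-18231529, - strand): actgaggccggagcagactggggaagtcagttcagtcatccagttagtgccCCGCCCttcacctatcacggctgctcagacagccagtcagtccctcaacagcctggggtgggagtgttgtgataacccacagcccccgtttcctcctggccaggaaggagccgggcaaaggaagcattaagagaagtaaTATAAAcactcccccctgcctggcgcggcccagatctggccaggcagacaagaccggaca
The Cav1 window held a GC box at 77 to 72 bases before the start and a reversed TATA box at 184 to 179 bases. The Cav2 window held a GC box at 63 to 58 bases and an AP-1 site at 145 to 139 bases. The Plvap window held a TATA box at 60 to 55 bases and a GC box at 199 to 194 bases. Of the 9 genes with an entry, 5 held a GC box before the first start (Cav1, Cav2, Cavin1, Ehd2 and Plvap). This compares with 30.5% of 33469 windows of the same length before all rat gene starts in the RefSeq table, later starts of a gene included. A later Cav1 start had a window with none of the 4 motifs. The TATA box was matched in 12.9% of those windows, the ETS core in 13.9% and the AP-1 site in 6.34%. No 2 of the motif matches in the 3 windows overlap, and a match of letters is not a binding site.

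Expression was read on 1-colour arrays, 1 per rat, and the share of spots that the scanner software marked as clearly brighter than background ran from 70.8% to 77.7%. The 4 arrays per group limit the precision. Values are scaled log2 signals, the log2 of the background-subtracted signal minus the 75th percentile of its array, so that 0 is that percentile and 1 unit is a doubling. Each probe has its own brightness, so levels are compared between arrays for 1 probe and not between genes. The 13 endothelial identity genes with a matched probe were all measured, among them Pecam1 (the gene of CD31) and Cdh5. The probes of the 10 genes had 0 saturated spots and 0 spots flagged as outliers.

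None of the 10 genes passed the test between monocrotaline and saline cells (limma, Benjamini-Hochberg adjusted over 19137 genes, threshold 0.05), where 1.43% of all genes passed, 1.37% higher and 0.0627% lower. In 8 of the 10 the mean was lower in monocrotaline cells, against 53.9% of all genes, and the median log2 fold change was -0.33, against -0.03 over all genes. The lowest adjusted p-values were those of Dnm2 (0.214) and Plvap (0.265). At an unadjusted p under 0.05 the list had these 2, both lower, while 13.9% of all genes had such a p and 7.23% had one with a lower mean. Groups that did not overlap were seen for 1 member, Dnm2, against 8.55% of all genes in either direction, 3.99% lower and 4.56% higher.

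**Figure D1:**
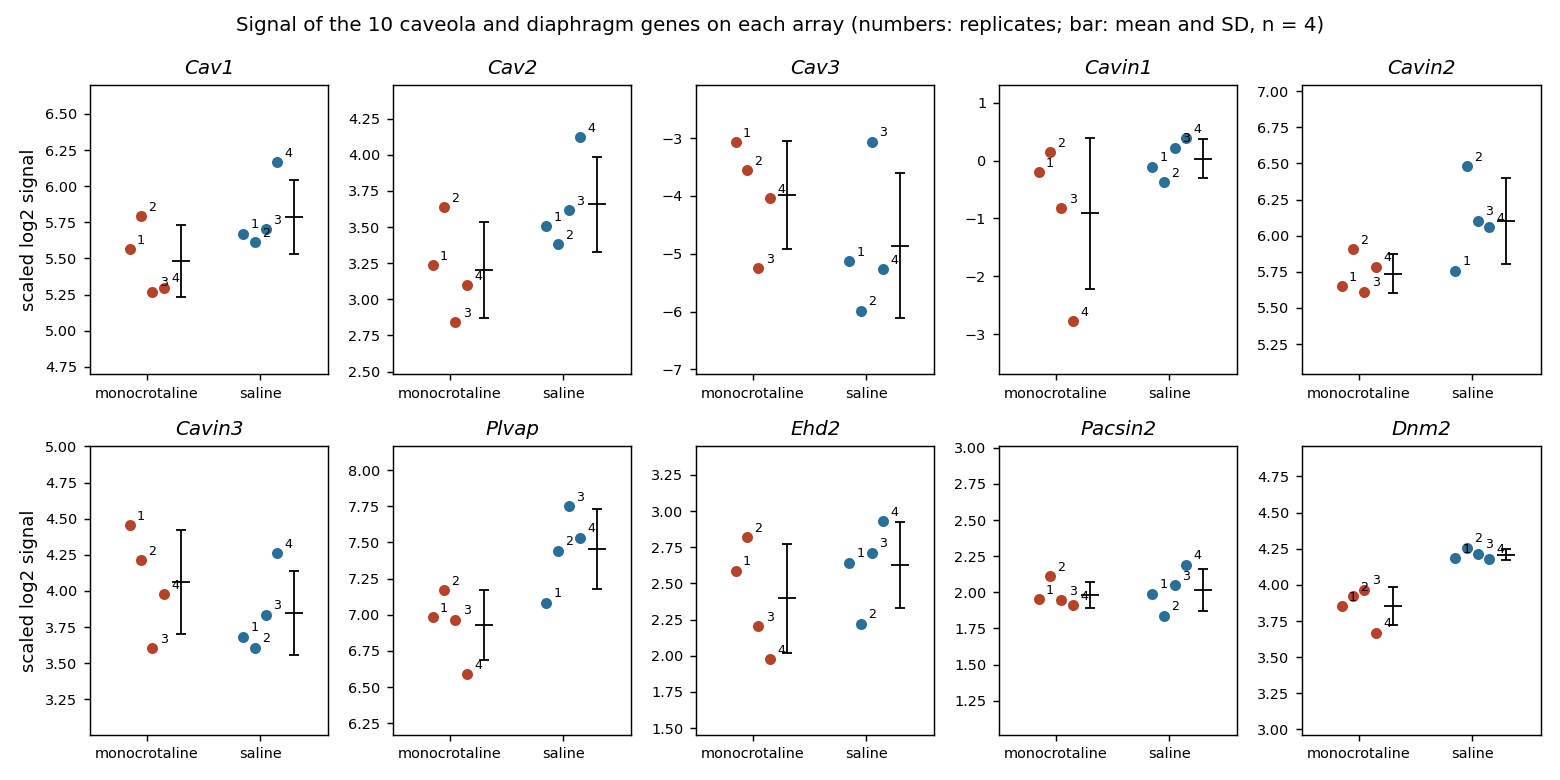
Scaled log2 signal of the 10 genes on each of the 8 arrays, monocrotaline left and saline right, with points numbered by replicate and the mean and SD (n = 4) beside them. Panels span 2 log2 units, except 5 units for Cav3 and Cavin1, and Dnm2 is the gene whose 4 monocrotaline arrays all lie under its 4 saline arrays.

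The caveolins come first. Cav1, the structural protein without which endothelial caveolae do not form, had scaled log2 signals of 5.57, 5.79, 5.27 and 5.30 on monocrotaline replicates 1 to 4, against 5.67, 5.61, 5.70 and 6.17 on saline replicates 1 to 4. Replicates 1, 3 and 4 of the monocrotaline group lay under every saline array, while replicate 2 lay above all but saline replicate 4, so the groups overlapped. The Cav1 mean was 5.48 ± 0.25 in monocrotaline cells and 5.79 ± 0.25 in saline cells (SD, n = 4 each). This is a fold of 0.809, with a 95% interval of 0.61 to 1.07 (limma adjusted p = 0.478), so at this precision a fall of Cav1 RNA below 0.61 of the saline level lies outside the interval. Its log2 fold change was -0.31 with all arrays, -0.18 without saline replicate 4 and -0.41 without monocrotaline replicate 2.

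Cav2, which forms mixed oligomers with caveolin 1 and depends on it for its stability, had 3.23, 3.64, 2.84 and 3.10 on the monocrotaline arrays, against 3.51, 3.38, 3.61 and 4.12 on the saline arrays. Its 8 arrays fell in exactly the order of Cav1, from monocrotaline replicate 3 as the lowest to saline replicate 4 as the highest. Ehd2, on chromosome 1, had nearly the same order. How often genes share such an order was not counted over all genes. The difference of -0.45 ± 0.22 (SE) on the log2 scale had a fold interval of 0.516 to 1.03 (limma adjusted p = 0.399). Without saline replicate 4 it was -0.30, and without monocrotaline replicate 2 it was -0.60.

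Cav3, the caveolin of striated and smooth muscle, was dim. Its probe had -3.08, -3.56, -5.25 and -4.04 on the monocrotaline arrays, against -5.13, -5.98, -3.06 and -5.26 on the saline arrays, where on saline replicate 2 only 1 of its 2 spots was well above background. The brightest array was saline replicate 3 and the next ones were monocrotaline replicates 1 and 2, so the groups overlapped widely. The difference of 0.88 ± 0.67 (SE) on the log2 scale did not pass (limma adjusted p = 0.597) and was 0.27 after normexp background correction with 75th percentile scaling, which adds 50 to the signals. Leaving out 1 array gave 0.58 for monocrotaline replicate 1, 0.51 for saline replicate 2 and 1.48 for saline replicate 3, and the first and last spots alone gave 1.36 and 0.67. Smooth muscle and pericyte markers, 12 of 12 measured with 0 calls, had mean levels relative to the saline mean of 0.61, 1.20, -0.31 and 0.23 on the monocrotaline arrays, against 0.22, -1.21, 1.12 and -0.14 on the saline arrays. The 3 arrays highest in these markers were the 3 highest in Cav3. Heart and skeletal muscle markers, 9 of 12 measured (Myh7, Nppa and Actn2 did not pass the filter), ranged from -0.43 to 0.92 on the monocrotaline arrays and from -0.21 to 0.36 on the saline arrays. The part of these cells in the Cav3 signal was not tested.

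None of the 3 cavins passed, and Cavin3 had the opposite sign to the others. Cavin1, the coat protein that caveolae need in every cell type, had -0.20, 0.15, -0.83 and -2.78 on the monocrotaline arrays, against -0.10, -0.37, 0.22 and 0.39 on the saline arrays. Monocrotaline replicate 4 stood far under the rest, and its 2 spots of the probe differed by 0.10 on the log2 scale. The difference of -0.95 ± 0.58 (SE) on the log2 scale did not pass (limma adjusted p = 0.499), and without monocrotaline replicate 4 it was -0.33.

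Cavin2, which binds phosphatidylserine and helps curve the membrane, had 5.65, 5.91, 5.61 and 5.79 on the monocrotaline arrays, against 5.76, 6.48, 6.10 and 6.06 on the saline arrays. Saline replicate 1 was the one saline array within the monocrotaline range. The difference of -0.36 ± 0.17 (SE) on the log2 scale did not pass (limma adjusted p = 0.384), and without saline replicate 2 it was -0.24. The value of saline replicate 1 rested on a pair of spots of the same probe with signals of 123373 and 64198, a difference of 0.94 on the log2 scale. On the other 7 arrays the pair differed by at most 0.30.

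Cavin3, a cavin that binds protein kinase C delta, was, with Cav3, 1 of the 2 members with a higher mean in monocrotaline cells. It had 4.46, 4.21, 3.60 and 3.98 on the monocrotaline arrays, against 3.68, 3.61, 3.84 and 4.26 on the saline arrays, with monocrotaline replicate 3 as the lowest and replicate 1 as the highest of all. The difference of 0.22 ± 0.22 (SE) on the log2 scale was within the spread between arrays (limma adjusted p = 0.708). Leaving out 1 array at a time gave values from 0.08 to 0.37, the lowest without monocrotaline replicate 1 and the highest without monocrotaline replicate 3.

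Plvap, the diaphragm protein, had scaled log2 signals of 6.98, 7.17, 6.96 and 6.59 on the monocrotaline arrays, against 7.08, 7.44, 7.75 and 7.53 on the saline arrays. All but monocrotaline replicate 2 lay under every saline array. The mean was 6.93 ± 0.24 in monocrotaline cells and 7.45 ± 0.28 in saline cells (SD, n = 4 each), a fold of 0.695 with a 95% interval of 0.519 to 0.93 that leaves out 1 but does not pass after adjustment (limma adjusted p = 0.265). The highest value, saline replicate 3, was the mean of spots with signals of 250224 and 558847. Among the 785 probes with 2 spots and a mean log2 signal above 14, this difference of 1.16 was the largest on any array, and that of Cavin2 the next largest, while the median probe had a largest difference of 0.11 over its 8 arrays and the 99th percentile was 0.45.

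The whole comparison was therefore fitted again with 1 spot per probe, a step chosen after the disagreement was seen. From the first spots, Plvap had a log2 fold change of -0.39 ± 0.17 (SE, limma adjusted p = 0.361), and from the last spots one of -0.61 ± 0.24 (SE, limma adjusted p = 0.321). Cavin2 had -0.49 ± 0.14 from the first spots (SE, limma adjusted p = 0.177) and -0.20 ± 0.27 from the last (SE, limma adjusted p = 0.791). With the first spots the Cavin2 groups did not overlap, at 5.60, 5.81, 5.56 and 5.63 on the monocrotaline arrays against 6.15, 6.42, 6.04 and 5.93 on the saline arrays, and 3.95% of all genes likewise lay apart with the monocrotaline arrays lower. With the last spots the Cavin2 groups overlapped, and 3.89% of all genes lay apart and lower. The Cav1 fold change hardly depended on the spot, at -0.31 and -0.30. None of the 10 genes passed with either spot.

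**Figure D2:**
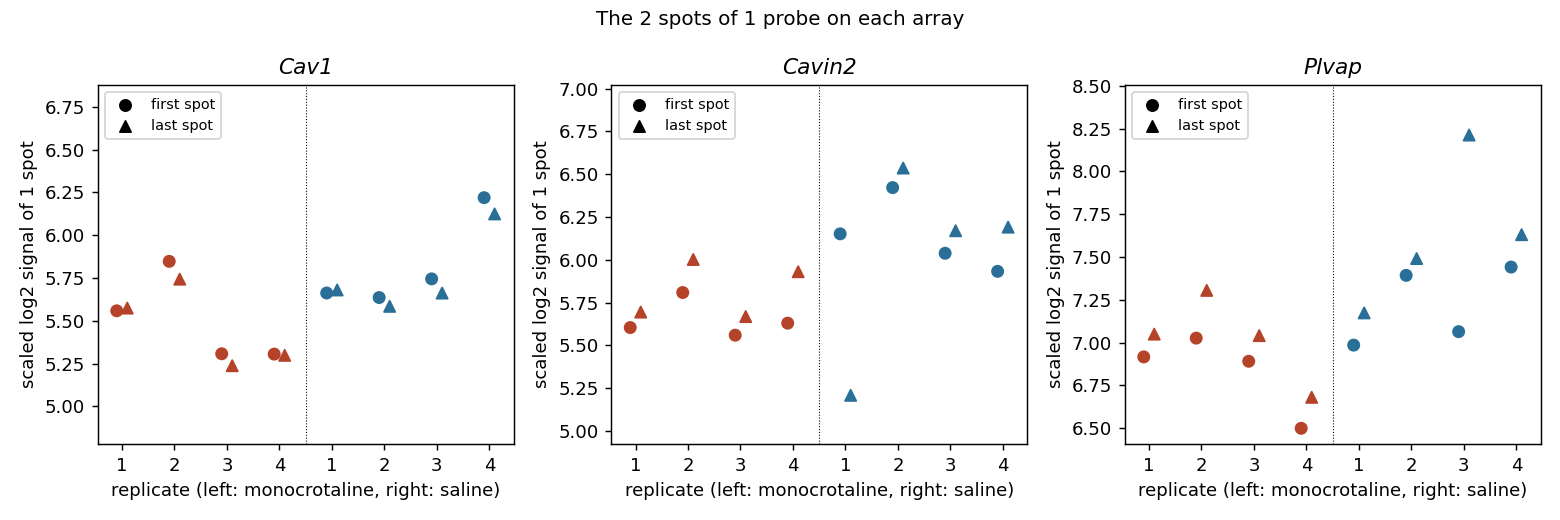
Scaled log2 signal of each of the 2 spots of the Cav1, Cavin2 and Plvap probes on the 8 arrays (circles, first spot; triangles, last spot), monocrotaline left of the dotted line and saline right of it. The spots of Cav1 lie together on every array, while those of Cavin2 on saline replicate 1 and of Plvap on saline replicate 3 lie 0.94 and 1.16 apart.

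Whether the diaphragm gene and the caveolin gene changed unequally was asked within each array. The log2 difference of the Plvap and Cav1 signals averaged 1.45 ± 0.17 in monocrotaline cells and 1.66 ± 0.33 in saline cells (SD, n = 4 each). The change of -0.22 was within the spread between arrays (two-sided exact permutation test over 70 regroupings, p = 0.286, where 0.0286 is the smallest possible). It was -0.09 without saline replicate 3, the array on which the Plvap spots disagreed, and -0.08 with the first spots.

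The genes of the caveola neck follow. Ehd2, an ATPase that rings the neck and holds caveolae at the surface, had 2.59, 2.82, 2.20 and 1.98 on the monocrotaline arrays, against 2.64, 2.22, 2.71 and 2.93 on the saline arrays. Replicates 3 and 4 of the monocrotaline group were the lowest and the others lay among the saline arrays, and the difference of -0.23 ± 0.22 (SE) on the log2 scale did not pass (limma adjusted p = 0.696). Without monocrotaline replicate 4 it was -0.09, and without monocrotaline replicate 2 it was -0.37.

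Pacsin2, an F-BAR protein that bends the neck membrane, had the smallest difference between the groups among the 10 genes. Its brighter probe had 1.95, 2.11, 1.95 and 1.91 on the monocrotaline arrays, against 1.99, 1.84, 2.05 and 2.19 on the saline arrays, for a fold of 0.974 with a 95% interval of 0.805 to 1.18 (limma adjusted p = 0.919). Its other probe, a single spot, gave a log2 difference of -0.14 (adjusted p = 0.708 with every probe fitted on its own by limma).

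Dnm2, the large GTPase that cuts caveolae and clathrin-coated pits from the membrane, had 3.85, 3.92, 3.97 and 3.67 on the monocrotaline arrays, against 4.18, 4.26, 4.22 and 4.18 on the saline arrays. The groups lay apart and the saline SD was only 0.04, yet the fold of 0.781 (95% interval 0.654 to 0.933) did not pass (limma adjusted p = 0.214).  The other Dnm2 probe, of the same accession and with a single spot, had 1.18, 1.03, 1.03 and 0.63 on the monocrotaline arrays, against 1.12, 0.99, 1.26 and 1.20 on the saline arrays. There the groups overlapped, with a log2 difference of -0.18 ± 0.15 (SE, adjusted p = 0.639 with every probe fitted on its own by limma), so the separation rests on 1 of 2 probes. With every probe fitted on its own, 1.42% of all probes passed and none of the 12 did.

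**Figure D3:**
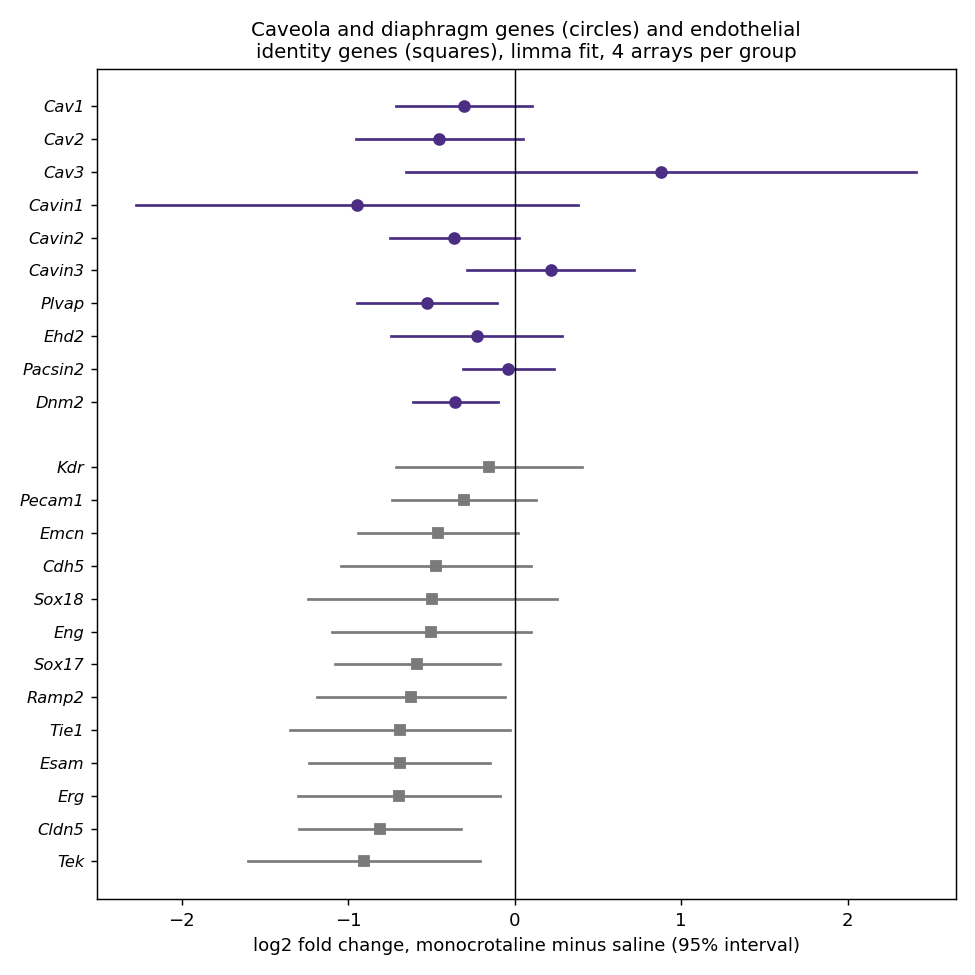
Log2 fold change, monocrotaline minus saline, with its 95% interval from limma (n = 4 per group) for the 10 caveola and diaphragm genes (circles) and 13 endothelial identity genes (squares). Before adjustment over all genes, the intervals of Plvap and Dnm2 lie under 0, as do those of 7 of the 13 endothelial genes. All 13 endothelial genes have values under 0.

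The endothelial identity genes gave the nearest comparison. All 13 measured had a lower mean in monocrotaline cells and 0 passed, with a median log2 fold change of -0.58 and a range of -0.91 (Tek, the angiopoietin receptor) to -0.15 (Kdr, a VEGF receptor). At an unadjusted limma p under 0.05, 7 of the 13 were lower, against 7.23% of all genes. For 2 of them, Cldn5 and Sox17, the monocrotaline arrays all lay under the saline arrays, against 3.99% of all genes. Pecam1, the gene of the antigen used to select the cells, was at -0.30 ± 0.19 (SE, limma adjusted p = 0.507), close to Cav1. Taken as 1 mean per array, with the saline mean set to 0, the 13 genes stood at -0.42, -0.11, -0.85 and -0.89 on monocrotaline replicates 1 to 4, against -0.12, -0.26, -0.0046 and 0.38 on the saline arrays. Saline replicate 4 was thus the highest and monocrotaline replicates 3 and 4 the lowest, the places they also held for Cav1, Cav2, Cavin1 and Ehd2. In RNA from many cells, fewer endothelial cells and less RNA per endothelial cell cannot be told apart.

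Centred on these 13 genes within each array, 7 of the 8 members that had lower means had higher ones, Cavin1 being the exception, and the median of all genes moved to 0.54. The 13 genes averaged -0.57 on the monocrotaline arrays, so the centring raises every log2 fold change equally. Any member above -0.57 before it must end above 0, so these turns are arithmetic. Cav1 was then at 0.26 ± 0.21 (SE, limma adjusted p = 0.334), Plvap at 0.043 ± 0.25 (adjusted p = 0.891), Cav2 at 0.12 ± 0.21 (adjusted p = 0.660) and Dnm2 at 0.21 ± 0.27 (adjusted p = 0.521). Cavin1 was at -0.38 ± 0.44 (adjusted p = 0.490) and Cavin3 at 0.78 ± 0.23 (adjusted p = 0.110). None of the 10 passed in that fit by limma, where 2.38% of all genes did. Without monocrotaline replicates 3 and 4, left out after their endothelial levels were seen, Cav1 was at -0.11 and Plvap at -0.38.

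**Figure D4:**
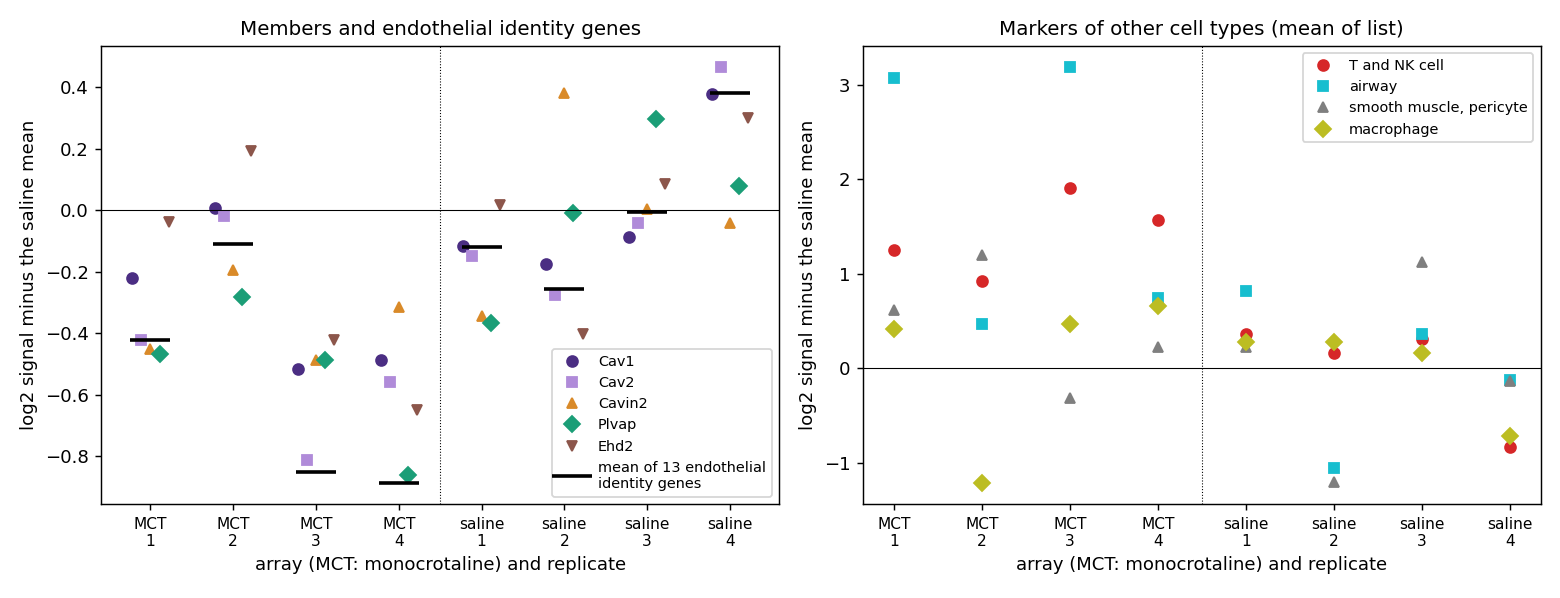
Left, signal of 5 members and the mean of 13 endothelial identity genes (bars) on each array, as log2 signal minus the saline mean. Right, the same for the mean of 4 marker lists of other cell types. On monocrotaline replicates 3 and 4 the 5 members shown and the endothelial mean all lie under their saline means. Of the members not shown, Cav3 and Cavin3 lie above their saline means on replicate 4. T and NK cell markers are above 0.9 on all 4 monocrotaline arrays.

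Markers of other cells differed between the same arrays. T and NK cell markers, 15 of 15 measured, had 3 rises (Cd247, Cd8b and Zap70, genes of T cell receptor signalling and recognition) and 0 falls by limma. Of all genes, 1.37% passed as higher. For 12 of the 15 the monocrotaline arrays all lay above the saline arrays, as for 4.56% of all genes. The list had mean levels of 0.92 to 1.91 on the monocrotaline arrays, against -0.84 to 0.36 on the saline arrays. The highest were on monocrotaline replicates 3 and 4 and the lowest on saline replicate 4, the reverse of Cav1. Airway markers, 7 of 10 measured (Dnah5, Ccdc39 and Muc5b had no matched probe), gave 0 calls. Of their means, 6 were higher in monocrotaline cells and 1 lower (Tppp3, the brightest). The list stood at 3.07 and 3.19 on monocrotaline replicates 1 and 3 and at 0.47 and 0.74 on replicates 2 and 4. On the saline arrays it ranged from -1.06 to 0.82. Type 1 alveolar cells and fibroblasts also build caveolae. Type 1 cell markers, 7 of 8 measured (Rtkn2 did not pass the filter), gave 0 calls. They ranged from -0.88 to 1.21 on the monocrotaline arrays and from -1.05 to 1.45 on the saline arrays. Fibroblast markers, 9 of 10 measured, ranged from 0.34 to 1.40 on the monocrotaline arrays and from -1.83 to 1.55 on the saline arrays, with 9 of 9 means higher in monocrotaline cells and 0 calls. Markers of macrophages (9 of 10 measured), platelets (5 of 8), type 2 alveolar cells (7 of 8) and red cells (6 of 8) gave 0 calls, with median log2 fold changes of 0.03, 0.35, 0.37 and 1.09. The part of any of these cells in the members' values was not tested.

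Other genes of membrane uptake gave 0 calls as well. Of 8 relatives of the members that were measured (Cavin4 and Dnm1 did not pass the filter), 4 were lower and 4 higher, with a median log2 fold change of -0.03. Ehd1, an Ehd2 relative of recycling endosomes, was at -0.77 ± 0.28 (SE, limma adjusted p = 0.278), with groups that overlapped. Ehd3, another relative, was at 0.90 ± 0.23 (SE, limma adjusted p = 0.133), and its monocrotaline arrays all lay above its saline arrays, as did those of 4.56% of all genes. Flot1 and Flot2, the flotillins of other membrane domains, were at -0.10 ± 0.14 and 0.05 ± 0.18. Of 14 measured genes of the clathrin route, 12 were lower, with a median of -0.12, and Clta and Cltc, the clathrin light chain A and heavy chain, were at -0.13 ± 0.14 and -0.18 ± 0.12.

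Of 16 genes for cargo and signalling proteins found in caveolae, 10 were lower, 6 were higher and 0 passed, with a median of -0.06. The highest log2 fold change was that of Atp2b4, at 0.91 ± 0.33 (SE, limma adjusted p = 0.284), with groups that overlapped. Gpihbp1, which carries lipoprotein lipase across capillary endothelium, was at -0.87 ± 0.22 (SE, limma adjusted p = 0.130). Scarb1, the HDL receptor, was at -0.56 ± 0.22 (limma adjusted p = 0.320). In both the monocrotaline arrays all lay under the saline arrays, 2 of 16 genes against 3.99% of all genes. Nos3, the endothelial nitric oxide synthase that caveolin 1 holds inactive, was at -0.08 ± 0.21, and Bmpr2, the BMP receptor mutated in heritable disease, at -0.64 ± 0.26 (limma adjusted p = 0.892 and 0.331).

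The genes whose signal over the 8 arrays, each centred on its own mean, was nearest to Cav1 were Ctsl, Mdfic, Pcdh19, Kiaa1191 and S100a13, with root mean square differences of 0.03 to 0.06 on the log2 scale, against a median of 0.39 over all genes. For Plvap they were Rgs7, Zfp523, Cds2, Bach1 and Ip6k2, at 0.11 to 0.12 against 0.43. Members and genes without a symbol were left out of this search. None of these 10 passed the limma test between the groups. Cav1 and Plvap did not pass either, so near matches picked on the same arrays could hardly pass.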

How the data were processed

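Total RNA (10 ng per sample, amplified and marked with Cy3 per the labels' protocols) was read on 8 Agilent arrays on 1 slide, with saline and monocrotaline arrays in different slide rows, so row and group cannot be told apart. Per the file headers, the deposited signals are an intensity, background-subtracted and detrended within each array by Agilent Feature Extraction 10.7.3.1 and not scaled between arrays, and the flags are other values of 0 or 1. The authors' deposited table holds log2 of values that were log2 already: raising 2 to each value returns the quantile-normalized log2 signal (median absolute difference 9.89e-10), and every column has a median of 3.02. Limma 3.6.9 is listed in the submitters' processing notes with no step given.

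Spots of a probe were averaged without control spots and flagged outliers, scaled to the 75th percentile of each array, and kept when well above background on at least 4 of 8 arrays (21652 probes). Accessions were named through the RefSeq table (18006 of 30367 probes), and the brightest probe stood for a gene. Monocrotaline was compared with saline by limma 3.58.1 in R 4.3.3, with Benjamini-Hochberg adjustment over 19137 genes. The method was tested on simulated data with noise drawn separately for each gene, so shifts shared by many genes of an array were not covered. Coordinates and promoter windows are RefSeq's on GRCr8, while the array files name rn4. The labels do not describe pooling, and each array is taken as 1 rat.

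The members and lists were chosen with earlier results of these data known. The naming rule asked for all 10 members with every probe and the counts of each list with its called genes or its brightest one. It also asked for the 5 genes (provisional names left out) nearest in signal to Cav1 and to Plvap. The brightest gene was named only for the endothelial identity, airway and relatives lists, so in this the rule was not followed in full. Other genes of the lists were named after their values were seen. Alternatives were normexp with an offset of 50, quantile, median and endothelial gene scaling, the deposited table, other filters and probe rules, limma's trend, robust and weight options, the replicate number as a block, and fits that leave out arrays. Normexp used the median spot signal, as no mean spot signal is in the files. Deviations of same-numbered arrays correlated at -0.33 to -0.01, so no positive correlation was seen. With so few arrays per group, these values cannot decide whether the numbers pair the arrays. P-values set a difference between the groups against the spread between arrays within them, and that spread does not hold a difference between slide rows.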

Additional observations from a re-analysis of the deposited data

Results flagged for a closer look

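Of 56 groups of 4 arrays checked for 1 array far from the others, 4 stood out, and chance alone gives about 1 in 20. Cav1 on saline replicate 4 was at a scaled log2 signal of 6.17, against 5.61 to 5.70 on the other saline arrays. On the same array the T and NK cell markers were at -0.84 and the macrophage markers at -0.71 relative to the saline mean. On monocrotaline replicate 2, the monocrotaline array highest in Cav1, the macrophage markers were at -1.22.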

How the results depend on the processing

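In 25 alternatives, 0 of the 10 genes passed limma's test, and the lowest adjusted p of any member was 0.110. Cav3, Cavin1 and Cavin3 kept their direction in all 25. Centring on the endothelial identity genes turned the log2 fold change of Cav1 to 0.26, Cav2 to 0.12, Cavin2 to 0.21, Plvap to 0.043, Ehd2 to 0.34, Pacsin2 to 0.53 and Dnm2 to 0.21, since that centring lifts all genes, with a median of 0.54. Ehd2 (0.078) and Pacsin2 (0.014) also turned without monocrotaline replicates 3 and 4. Pacsin2 was at 0.0011 with normexp and quantile normalization, 0.0056 in the deposited table and from -0.098 to 0.020 with 1 array left out, above 0 without saline replicate 4. The Plvap against Cav1 difference stayed under 0 and did not pass in any alternative run for it, from -0.33 to -0.08 (-0.32 to -0.09 with 1 array left out). The fits without a pair of monocrotaline arrays could not pass, as too few regroupings remain for a p under 0.05.

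Counts over all genes moved more. The 262 higher genes became 455 with endothelial centring, 0 with the replicate block, 24 without monocrotaline replicates 3 and 4, 51 without replicates 1 and 3, and 11 to 273 with 1 array left out. The 12 lower genes became 21 with either normexp setting, 0 with endothelial centring, 59 with array weights, 0 with the replicate block, 1 without either pair, and 0 to 93 with 1 array left out. The highest counts with 1 array left out, 273 and 93, were those without monocrotaline replicate 2, and the lowest, 11 and 0, those without saline replicate 1. The cause of these shifts was not tested. With the replicate block the adjusted p was 0.706 for Cav1, 0.502 for Plvap and 0.521 for Dnm2, and no member's call differed.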
